A study of Mus musculus with 2 samples.

Results

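A set of 25 genes made most of their measured RNA as transcripts that GENCODE M21 classes as retained intron. A retained-intron transcript is an annotated transcript of a coding locus that keeps sequence which other transcripts of the locus splice out, and it has no coding sequence of its own in the annotation. The libraries came from RNA of the nucleoplasmic fraction of bone marrow-derived macrophages, which are primary cells of the C57BL/6J mouse strain. The cells were stimulated for 30 min with 100 ng/ml of Lipid A, the part of bacterial lipopolysaccharide that the receptor TLR4 senses. There was 1 group of 2 libraries, and total RNA was sequenced after ribosomal RNA depletion. Replicate 1 started from 1 µg of RNA and replicate 2 from 500 ng. Some labels name the fraction as the nucleus. Age and sex were not collected, and both libraries cite 1 donor entry. Unstimulated cells were not analysed here, so the values show levels 30 min into stimulation and carry no statement on induction or on altered splicing.

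Members were chosen by their measured values. Of 55536 annotated genes, 9120 had both a protein-coding and a retained-intron transcript, and 2683 of these reached a gene level of 10 TPM in both libraries. TPM is a read count divided by transcript length and scaled to the library total. Each gene's TPM was split into the percent held by its retained-intron transcripts, called its retained-intron share, and the rest. The share was at least 80% in both libraries for 28 genes, which is 1.04% of the 2683. Of these, 3 (Hnrnpll, Srsf11 and H2-Q7) were left out by their symbols, which left 25 members and 2658 other genes that passed the level filter. Every member passed that filter by definition, so the shares below describe the choice and support nothing by themselves.

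Most introns are removed while the RNA is still being transcribed, and a polyadenylated RNA that keeps an intron tends to be held in the nucleus until it is spliced or degraded. Such introns are often called detained. If the RNA reaches the cytoplasm, a stop codon inside the intron can send it to nonsense-mediated decay. A nuclear fraction also holds RNA that is still being made, and short reads assigned to transcript models cannot tell an intron kept in a finished RNA from one not yet removed.

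The short introns below show what the annotation calls retained in the members. They come from 7 members that hold an intron of at most 300 bases between coding exons, with 1 intron shown for each. That intron lies in the retained-intron transcript of highest TPM among those that hold one. Short introns of other members, such as Apbb3 and Thoc1, are not shown. Each is given 5′ to 3′ on the strand of its gene, read from the GENCODE M21 transcript sequences on GRCm38 (mm10). Capitals mark the first 6 bases, which belong to the 5′ splice site, and the last 3 bases, which belong to the 3′ splice site.
Lilrb4a-209, intron 3 of 8 of Lilrb4a-201, chr10:51491719-51491860, plus strand: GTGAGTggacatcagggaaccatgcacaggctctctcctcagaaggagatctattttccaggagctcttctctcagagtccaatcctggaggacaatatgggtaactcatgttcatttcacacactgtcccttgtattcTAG
Cd83-202, intron 1 of 4 of Cd83-201, chr13:43785251-43785345, plus strand: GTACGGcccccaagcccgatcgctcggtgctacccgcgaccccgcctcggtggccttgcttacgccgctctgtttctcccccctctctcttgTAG
Pirb-202, intron 6 of 14 of Pirb-201, chr7:3716891-3717117, minus strand: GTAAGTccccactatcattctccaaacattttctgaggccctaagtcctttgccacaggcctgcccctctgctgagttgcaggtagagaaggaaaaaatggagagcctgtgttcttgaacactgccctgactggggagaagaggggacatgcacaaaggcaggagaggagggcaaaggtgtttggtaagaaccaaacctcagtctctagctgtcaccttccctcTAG
Slc27a1-203, intron 3 of 12 of Slc27a1-207, chr8:71579799-71579906, plus strand: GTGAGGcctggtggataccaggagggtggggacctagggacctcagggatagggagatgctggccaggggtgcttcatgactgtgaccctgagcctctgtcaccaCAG
Dgat1-205, intron 12 of 16 of Dgat1-201, chr15:76503072-76503153, minus strand: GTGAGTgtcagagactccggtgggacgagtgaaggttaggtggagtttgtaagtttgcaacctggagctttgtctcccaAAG
Stk25-202, intron 7 of 11 of Stk25-201, chr1:93625607-93625780, minus strand: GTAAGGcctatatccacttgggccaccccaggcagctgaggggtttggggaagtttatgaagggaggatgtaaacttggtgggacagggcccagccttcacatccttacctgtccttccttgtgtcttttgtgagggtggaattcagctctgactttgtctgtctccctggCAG
Tap2-202, intron 6 of 11 of Tap2-201, chr17:34212068-34212229, plus strand: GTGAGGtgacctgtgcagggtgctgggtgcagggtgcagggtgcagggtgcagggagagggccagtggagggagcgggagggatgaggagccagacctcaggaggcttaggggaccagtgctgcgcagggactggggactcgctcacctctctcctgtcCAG

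All 7 began with GT and ended with AG, the bases of the common splice sites. They were 82 to 227 bases long. The Cd83 and Tap2 introns were rich in G and C, at 67.4% and 67.3%. Read on in the frame of the coding transcript, 6 of the 7 met a stop codon, and the lengths of 3 were multiples of 3. The Tap2 intron met TGA after 2 codons, and the Dgat1 and Stk25 introns each met a stop after 12 codons. The Pirb intron met TAA after 14 codons, the Slc27a1 intron TGA after 26 and the Cd83 intron TAG after 31. No in-frame stop lay in the Lilrb4a intron, whose 142 bases shift the frame.

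The libraries held 15846212 expected counts of annotated genes in replicate 1 and 14874879 in replicate 2. Members took 132336 of these in replicate 1 and 105099 in replicate 2, or 0.835% and 0.707%. Gene counts of single members ran between 158 and 50765 in replicate 1 and between 193 and 41046 in replicate 2. As a check of the cell label, all 8 macrophage marker genes were detected at 1 TPM or more in both libraries, with summed levels of 2627 TPM in replicate 1 and 3363 TPM in replicate 2. None of the 4 B cell, 4 fibroblast or 3 mast cell markers reached that level. Single genes did in 3 other lists, which were Cd4 of the T cell list at 23.9 TPM in replicate 1 and 34.9 TPM in replicate 2, Alas2 of the erythroid list and S100a9 of the neutrophil list. The defining genes Cd3e, Cd3g, Hba-a1, Hbb-bs and Ly6g were at 0 in both. Mitochondrial genes held 2.18% of counts in replicate 1 and 6.14% in replicate 2. The part of that difference in the results below was not tested. The labels call the replicates biological without saying whether cultures were separate, and differences between the libraries may be technical. In bulk RNA, more cells making a transcript and more RNA per cell cannot be told apart.

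**Figure D1:**
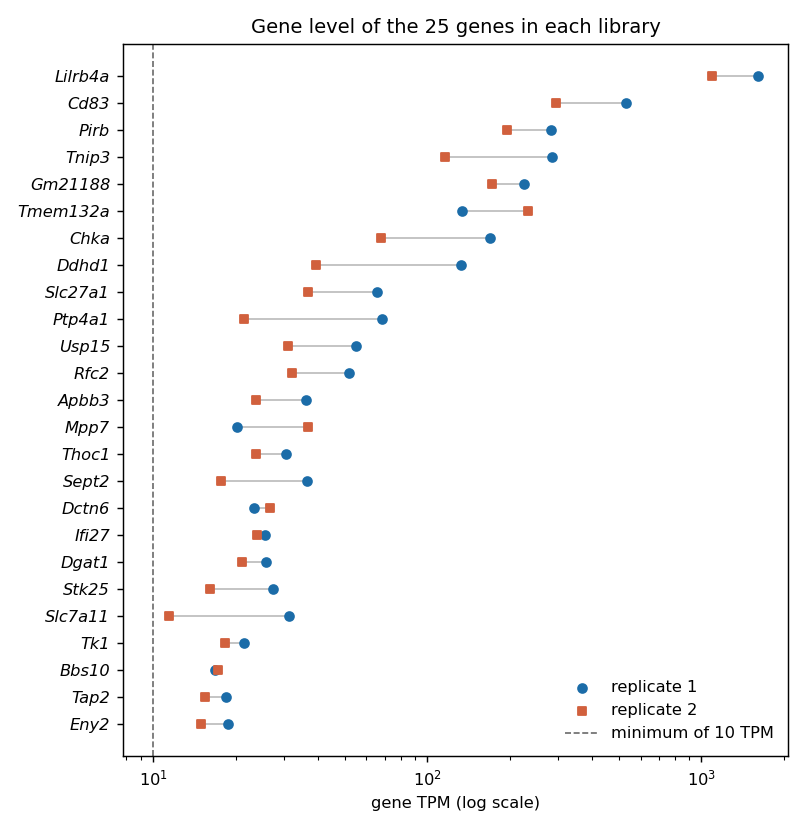
Gene TPM (log axis) of the 25 members, circles for replicate 1 and squares for replicate 2, with the minimum of 10 TPM dashed. Levels ran from 1610 TPM for Lilrb4a in replicate 1 to 11.4 TPM for Slc7a11 in replicate 2, and 21 members had the lower TPM in replicate 2. The other genes leaned the same way on this scale. The median log2 ratio of TPM, replicate 1 over replicate 2, was 0.55 for the members and 0.57 for the 2658 other genes.

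Receptors of the leukocyte surface were the most abundant members. Lilrb4a, an inhibitory immunoglobulin-like receptor of myeloid cells, stood at 1610 TPM in replicate 1 and 1096 TPM in replicate 2. Its 9 retained-intron transcripts together held 99.5% and 99.3% of that. Its coding transcripts were listed at 0 TPM in replicate 1 and at 0.92 TPM in replicate 2. The leading transcript, Lilrb4a-206, held 44.6% of the TPM in replicate 1 and 50.4% in replicate 2, but Lilrb4a-209, which is longer, took more reads, 18721 and 12801 against 12912 and 12374 for Lilrb4a-206. The gene, ENSMUSG00000112148.1 at chr10:51490956-51496611, is not a clean locus. A coding gene on the same strand, Gm49339, overlaps 74.9% of the bases of Lilrb4a-206 and was given 2956 reads in replicate 1 and 3367 in replicate 2, and the neighbouring gene Lilr4b matches 77.5% of its bases at 95% identity or more. How the reads were split among these genes makes the near absence of coding Lilrb4a RNA uncertain.

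Cd83, a membrane protein of activated dendritic cells, B cells and macrophages, had a single retained-intron transcript. The gene stood at 529.8 TPM in replicate 1 and 294.4 TPM in replicate 2, and the transcript Cd83-202 held 82.6% and 84.0% of it. Cd83-202 ends where the coding transcript ends and differs from it in length by little, 2158 against 2477 bases. Of its bases, 95 are intronic, the intron printed above, which is 4.40% of the transcript. The coding transcripts were left with 92.0 TPM in replicate 1 and 47.2 TPM in replicate 2, the highest coding levels among the members. The retained-intron transcript of Cd83 (ENSMUSG00000015396.4, chr13:43784775-43803132) overlaps no exon of another gene.

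Pirb, an inhibitory receptor that binds MHC class I molecules, stood at 282.6 TPM in replicate 1 and 194.9 TPM in replicate 2, with retained-intron shares of 84.0% and 80.6%. All 4 of its retained-intron transcripts hold a whole intron, and Pirb-202 alone took 53.9% and 52.7% of the TPM. Only 7.77% of the bases of Pirb-202 are intronic. The gene belongs to a cluster of close relatives on chromosome 7, of which 9 genes or pseudogenes match at least 20% of Pirb-202 at that identity, up to 71.6% for Lilra6. Reads of Pirb and its copies may have been split between them.

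Regulators and effectors of innate immunity formed the next group. Tnip3 encodes a partner of the deubiquitinase A20 that limits NF-kB activation. It stood at 284.7 TPM in replicate 1 and 115.6 TPM in replicate 2, and its shares of 88.5% and 88.4% were closer than those of any other member. Its leading retained-intron transcript, Tnip3-204, is a single exon of 2624 bases that is 95.1% intronic. No exon of another gene overlaps the retained-intron transcripts of Tnip3. Its coding transcripts reached 32.9 TPM in replicate 1 and 13.4 TPM in replicate 2.

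Tap2, a subunit of the transporter that moves peptides into the endoplasmic reticulum for MHC class I, was one of the lowest members, at 18.4 TPM in replicate 1 and 15.5 TPM in replicate 2. One retained-intron transcript, Tap2-202, held 81.1% and 82.1%, with the 162-base intron printed above as its only intronic bases. Ifi27, an interferon-inducible gene, stood at 25.6 TPM in replicate 1 and 23.8 TPM in replicate 2, with shares of 91.9% and 89.1%. These rest on few reads, 158 and 193, and the Wilson 95% intervals of its share of reads were 80.5% to 91.1% in replicate 1 and 78.7% to 88.9% in replicate 2. These intervals reflect counting error alone and leave out the uncertainty of assigning reads to transcripts. Without molecular identifiers some reads may also be copies of 1 molecule, which the intervals ignore.

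Lipid and amino acid metabolism gave 5 members. Chka, choline kinase, which starts phosphatidylcholine synthesis, stood at 169.5 TPM in replicate 1 and 67.8 TPM in replicate 2. Its shares were 85.7% and 90.1%, spread over 6 retained-intron transcripts, of which Chka-214 led with 31.1% and 36.2%. That transcript is 3605 bases long and 80.7% intronic. Slc27a1, a long-chain fatty acid transporter, had the highest mean share, 99.1% in replicate 1 and 100% in replicate 2, at 65.4 and 36.7 TPM. Its coding transcripts were at 0.56 TPM in replicate 1 and listed at 0 in replicate 2. In contrast to Chka, its leading transcript Slc27a1-205 is mostly exonic, with 5.96% intronic bases and a further part outside the coding transcripts.

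Slc7a11, the light chain of the cystine and glutamate exchanger, stood at 31.4 TPM in replicate 1 and 11.4 TPM in replicate 2. Its shares were 96.6% and 97.0%, and Slc7a11-204, a single exon of 2677 bases of which 76.8% is intronic, held 65.8% and 73.1%. The coding transcript Slc7a11-201 is 9223 bases long and was at 1.06 TPM in replicate 1 and 0.34 TPM in replicate 2. Ddhd1, a phospholipase that prefers phosphatidic acid, stood at 132.9 TPM in replicate 1 and 39.1 TPM in replicate 2, with shares of 82.4% and 84.9%. Its coding transcript Ddhd1-203 is 9802 bases long and held 1720 of the gene's reads in replicate 1 and 657 in replicate 2, more than any other single transcript, but only 7.90% and 8.39% of the TPM. By reads instead of TPM, the retained-intron share of Ddhd1 was 56.7% in replicate 1 and 55.0% in replicate 2. Dgat1, which adds the last fatty acid to triglycerides, stood at 25.9 TPM in replicate 1 and 21.1 TPM in replicate 2, with shares of 80.01% and 81.8%, and all 6 of its retained-intron transcripts hold a whole intron.

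The handling of RNA and DNA in the nucleus gave 4 members. Thoc1, a subunit of the THO complex that couples transcription to mRNA export, stood at 30.5 TPM in replicate 1 and 23.7 TPM in replicate 2. It had more retained-intron transcripts than any other member, 11, which together held 81.4% and 82.5%. The leading one differed between the libraries in weight, as Thoc1-211 held 42.2% in replicate 1 and 18.1% in replicate 2. Eny2, a subunit shared by the SAGA coactivator and the TREX-2 export complex, stood at 18.8 TPM in replicate 1 and 15.0 TPM in replicate 2. Its share was 94.6% in replicate 1 and 89.6% in replicate 2. Both genes overlap a coding gene on the opposite strand, Usp14 for Thoc1 and Nudcd1 for Eny2. Reads of either gene in these pairs may have been counted for the other, the strand setting of the counting not being stated in the labels or file headers.

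Rfc2, a subunit of the clamp loader of DNA replication, stood at 51.9 TPM in replicate 1 and 32.0 TPM in replicate 2. Its shares by TPM were 88.3% and 89.4%, and its shares by reads were 59.1% and 59.6%. Tk1, the cytosolic thymidine kinase, stood at 21.5 TPM in replicate 1 and 18.3 TPM in replicate 2, with shares of 84.0% and 85.7%. Tk1 differed from Rfc2 in that its share by reads was as high, 83.9% and 83.0%, and in that its leading transcript Tk1-202 is 88.9% intronic against 10.8% for Rfc2-204.

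Signalling, scaffold and transport proteins made up most of the remaining members. Ptp4a1, a protein tyrosine phosphatase, stood at 68.7 TPM in replicate 1 and 21.5 TPM in replicate 2, with shares of 83.2% and 82.1%. Usp15, a deubiquitinase, stood at 55.1 TPM in replicate 1 and 31.2 TPM in replicate 2, with shares of 92.4% and 87.9% over 8 transcripts. Its leading transcript Usp15-208 held the fewest intronic bases of all, 16 of 1587. Stk25, a kinase of the Golgi apparatus, stood at 27.3 TPM in replicate 1 and 16.1 TPM in replicate 2, with shares of 84.5% and 80.9%. The intron of 816 bases in its leading transcript Stk25-204 had the lowest 5′ splice site score of the members, 1.32 bits.

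Sept2, a septin that forms filaments, stood at 36.3 TPM in replicate 1 and 17.7 TPM in replicate 2, with shares of 89.2% and 81.6%. Ptp4a1 and Sept2 each have a further annotated gene of the same symbol on the same strand, which held 1759 reads in replicate 1 and 1196 in replicate 2 for Ptp4a1, and 1159 and 1509 for Sept2. The members are the entries ENSMUSG00000026064.16 and ENSMUSG00000026276.20, with 2053 and 1084 reads for Ptp4a1 and 794 and 465 reads for Sept2, and the division of reads between such entries is uncertain. Apbb3, an adaptor that binds the cytoplasmic tail of the amyloid precursor protein, stood at 36.2 TPM in replicate 1 and 23.7 TPM in replicate 2. Its share was 92.0% in replicate 1 and 81.7% in replicate 2.

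Mpp7, a scaffold protein of cell junctions, went against the common order of the libraries on the TPM scale, with 20.2 TPM in replicate 1 and 36.7 TPM in replicate 2. Most of this RNA was 1 transcript. Mpp7-202, a single exon of 4567 bases that is 97.2% intronic, had 950 reads in replicate 1 and 2912 in replicate 2, whereas the coding transcripts were at 2.48 TPM in replicate 1 and 1.90 TPM in replicate 2. Tmem132a, a transmembrane protein, was also lower in replicate 1, at 133.3 TPM against 232.4 TPM in replicate 2. Its only retained-intron transcript, the single-exon Tmem132a-203, held 93.6% in replicate 1 and 94.8% in replicate 2. The abundant gene Slc15a3, with 13354 reads in replicate 1 and 11355 in replicate 2, lies on the opposite strand and overlaps 16.4% of Tmem132a-203.

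Dctn6, a dynactin subunit, stood at 23.4 TPM in replicate 1 and 26.6 TPM in replicate 2, on 212 and 282 reads, with shares of 87.6% and 95.2%. Bbs10, a chaperonin-like protein needed to assemble the BBSome of cilia, stood at 16.9 TPM in replicate 1 and 17.2 TPM in replicate 2. Its one retained-intron transcript is a single exon across the gene, with 305 intronic bases of 3047, and held 100% in replicate 1 and 91.1% in replicate 2. Gm21188, to which the sources give no role, stood at 225.7 TPM in replicate 1 and 171.7 TPM in replicate 2, with shares of 88.4% and 95.1%. A long non-coding gene, Gm36161, matches 86.1% of its leading transcript.

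The summed level of coding transcripts was under 10 TPM in both libraries for 17 of the 25 members and at least 10 TPM in both for 3. These 3 were Cd83, Pirb and Tnip3. The share limit caps the coding part of a member, so members of low gene level had to fall under 10 TPM. The counts therefore largely restate the rule, and they were not made in the other genes. The members' median gene level was 36.3 TPM in replicate 1 and 26.7 TPM in replicate 2, against 32.3 TPM and 22.1 TPM for the 2658 other genes, so the members were close to those genes in level. The members together had 107 retained-intron and 74 coding transcripts, of which 4 and 27 had no read in either library.

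The 80% limit falls in a continuous range. Just inside it were Dgat1, at 80.01% in replicate 1 and 81.8% in replicate 2, and Mpp7, at 80.4% and 93.5%. Just outside were Malt1, a paracaspase of NF-kB signalling, at 79.7% in replicate 1 and 82.1% in replicate 2, and Hdac1, a histone deacetylase, at 78.8% and 81.5%. Malt1 stood at 321.3 TPM in replicate 1 and 125.6 TPM in replicate 2, above all but 2 members in replicate 1. In all, 12 genes reached 80% in replicate 1 only, and 14, Malt1 and Hdac1 among them, in replicate 2 only.

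The libraries gave close shares. The median difference between libraries was 2.57 percentage points for the members, and the greatest was 13.1 points, for Mpp7. In 19 members the libraries lay within 5 points of each other. The share was higher in replicate 1 in 11 members and in replicate 2 in 14. Among the 2658 other genes the median difference was 5.43 points. Those genes did not have to pass the share limit, and shares near 100% have less room to differ, so the medians are not comparable. Across those genes the shares of the libraries correlated at a Pearson's r of 0.882 and a Spearman's rho of 0.876, a description across genes that share annotation, transcript lengths and counting method.

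**Figure D2:**
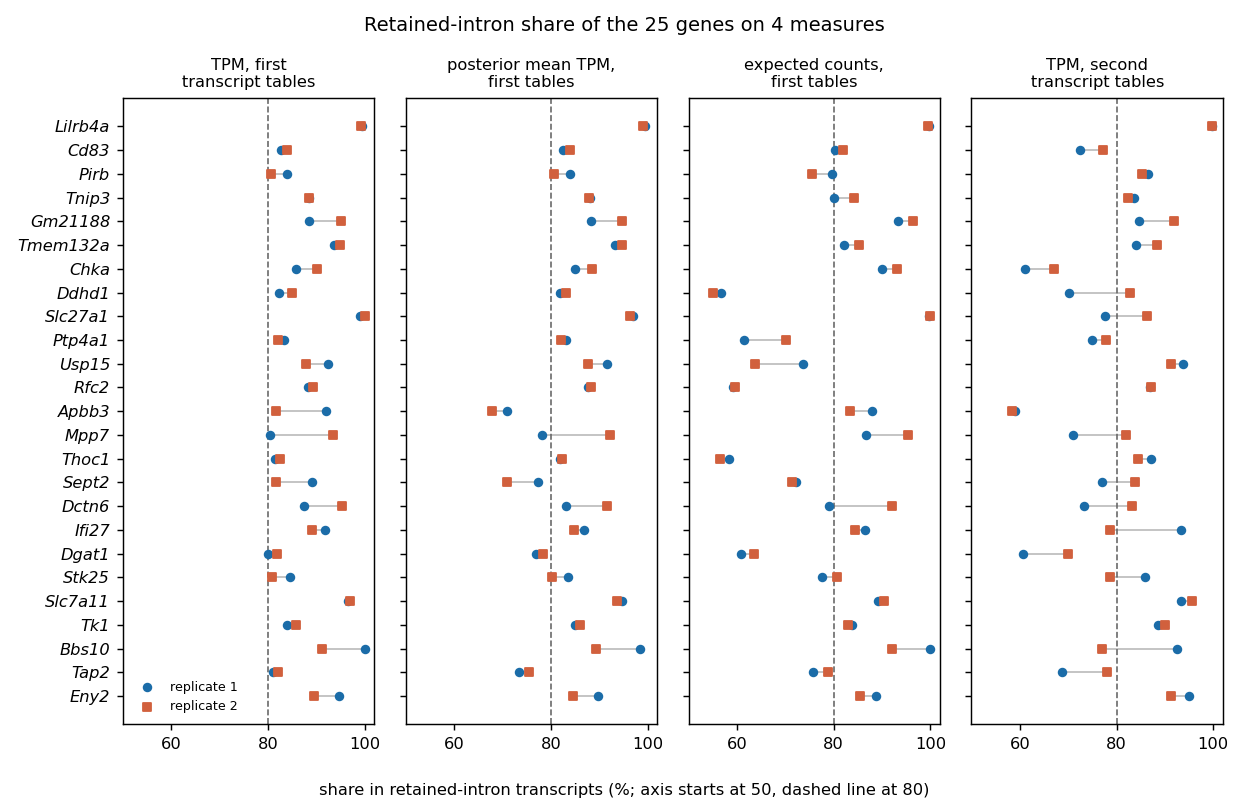
Retained-intron share (percent, axis from 50) of each member on 4 measures, circles for replicate 1 and squares for replicate 2, with 80% dashed. All 25 members stay above 50% on every measure, and 25, 20, 14 and 11 of them reach 80% in both libraries on the measures from left to right.

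How the share was computed changed which genes passed. The TPM of the first transcript tables defined the set. With the posterior mean TPM of the same tables, an average over plausible read assignments, 20 members stayed at 80% or more in both libraries, beside a background of 0.932% of the 2683 genes. With reads in place of TPM, 14 members did so, beside 1.04%. With the second transcript tables, for which the deposited text files list read files as the input and not an alignment, 11 did so, beside 0.895%. The rule had used the first of these values, so the counts describe how far the measures coincide. All 25 members stayed at 50% or more in both libraries on all 4 measures, a level that 13.7% of the 2683 genes reached on the first.

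The median share of the members was 87.9% by TPM, 85.8% by posterior mean, 83.4% by reads and 83.0% in the second tables, against 28.5%, 28.6%, 15.1% and 31.8% for the other genes. Lilrb4a, Tnip3, Gm21188, Tmem132a, Slc7a11, Tk1 and Eny2 held 80% in both libraries on all 4 measures. The share by reads was lower than the share by TPM in both libraries for 18 members and higher in both for 4. TPM divides by length, so it weights short transcripts up, and the leading retained-intron transcript was shorter than the leading coding one in 17 members, or 68%, against 79.2% of the other genes. Rfc2, Thoc1 and Ddhd1 lost most by reads, with shares under 60% in both libraries. In the second tables the lowest shares were those of Apbb3, at 59.0% in replicate 1 and 58.4% in replicate 2, Dgat1, at 60.7% and 69.96%, and Chka, at 61.1% and 67.2%. Tap2 followed at 68.6% and 78.04%.

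**Figure D3:**
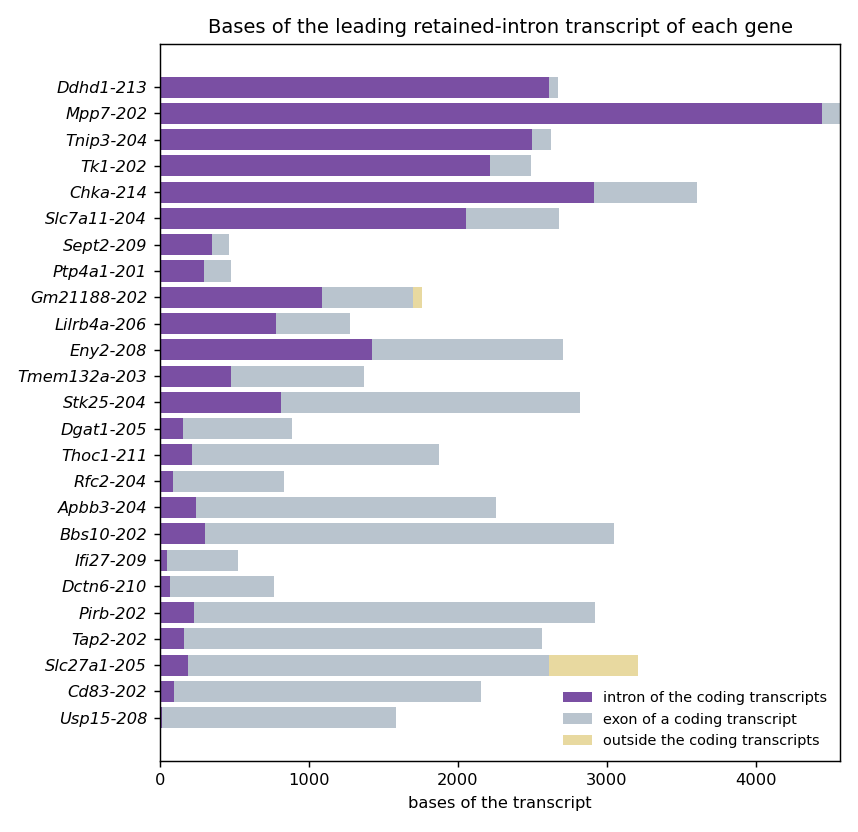
Bases of the retained-intron transcript with the highest mean TPM in each member, divided into intron of the coding transcripts, exon of a coding transcript and sequence outside them. Intronic bases make up 97.7% of Ddhd1-213 at the top and 1.01% of Usp15-208 at the bottom.

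A high retained-intron share is not a high share of intronic bases. In the leading retained-intron transcripts the intronic part, meaning bases inside the gene's coding transcripts but in no exon of any of them, ran from 1.01% to 97.7%, with a median of 28.9%. In 11 members the leading transcript was over 50% intronic, with Ddhd1-213 at 97.7%, Mpp7-202 at 97.2%, Tnip3-204 at 95.1% and Tk1-202 at 88.9%. In 12 members it was under 20% intronic, among them Usp15-208, Cd83-202, Slc27a1-205, Tap2-202 and Pirb-202. Tmem132a and Stk25 lay between. Of the members 44% were over 50% intronic and 48% under 20%, against 48.6% and 19.5% of the other genes. Models at the low end can lack much of the coding transcript, as Usp15-208 has 1587 bases against 11525 for Usp15-211. For most of them, few bases of the model lie outside the coding exons. Slc27a1-205 differs, since of its 3207 bases 2423 are exonic and 191 intronic, and the others lie outside the coding transcripts. The leading transcript can differ between the libraries. It was the same in both in 18 members, or 72%, against 76.6% of the other genes. It can also hold a small part of the gene, as Usp15-208 held 30.1% of TPM in replicate 1 and 28.4% in replicate 2. Over all retained-intron transcripts, with bases weighted by TPM, Usp15 was 37.5% intronic and Ddhd1 53.8%. Cd83, with a single such transcript, stayed at 4.40%.

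The leading transcript held at least 1 whole intron in 10 members, or 40.0%, against 30.4% of the other genes for which it could be assigned. It held only a part of an intron in the other 15, or 60.0% against 68.4%. A single unspliced exon was the leading transcript in 6 members, or 24% against 12.8%, and 8 members, or 32.0%, shared the 3′ end of the coding transcript within 100 bases, against 18.8%. The members' leading transcripts were longer, with a median of 2258 bases against 1241, and less intronic, with 28.9% against 48.5%. Members had a median of 4 annotated retained-intron transcripts, against 2. Their genes spanned a median of 18358 bases, against 34151. These figures carry no test.

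**Figure D4:**
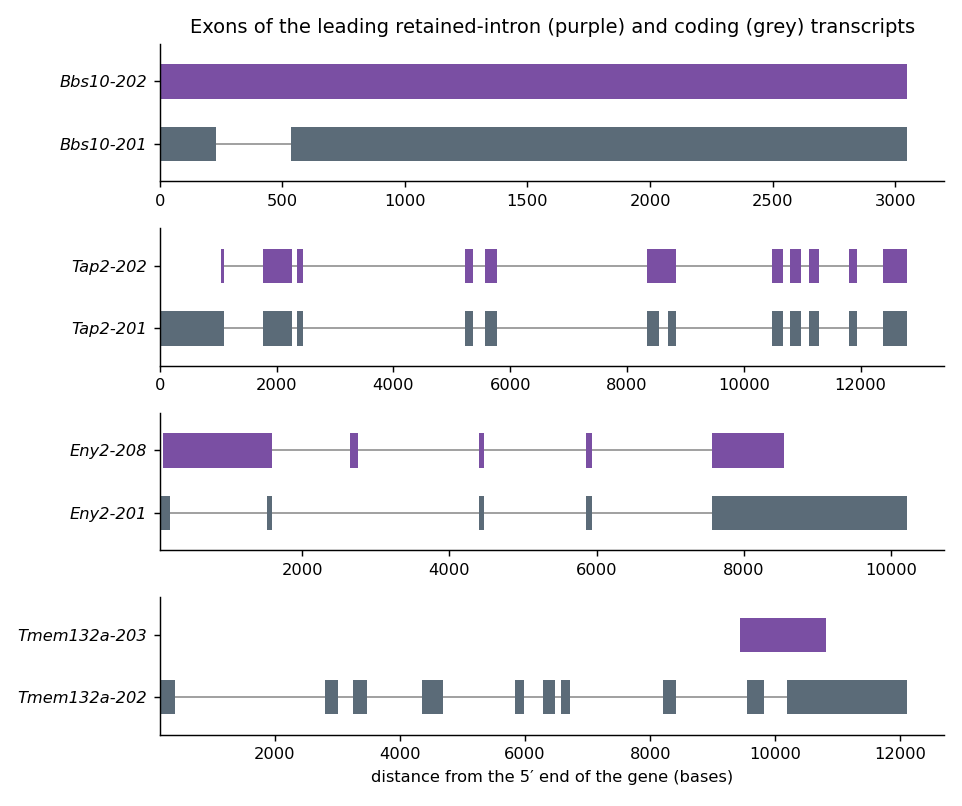
Exons (boxes) of the leading retained-intron transcript (purple, upper) and the leading coding transcript (grey, lower) of Bbs10, Tap2, Eny2 and Tmem132a, by distance from the 5′ end of the gene in bases. Bbs10-202 spans its gene as 1 exon, Tap2-202 keeps 1 internal intron of 162 bases and has a shorter first exon, Eny2-208 keeps the first intron, and Tmem132a-203 is 1 exon that spans 1 whole intron of the coding transcript drawn.

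These kinds of model can be seen in the exon maps of 4 members. A transcript with a whole intron was annotated in 64% of members, against 51.9% of the other genes, and 9 members had none. Such transcripts held, in sum, at least 50% of the TPM in both libraries in 7 members, which was not counted in the other genes. Among the 7 were Bbs10, Cd83, Dgat1, Pirb, Tap2 and Tmem132a, for which the whole retained-intron share came from them. The seventh was Stk25, at 74.1% in replicate 1 and 65.7% in replicate 2. Tnip3 was at 20.4% and 26.8%, and Chka at 10.2% and 9.26%.

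The leading transcripts of the 10 members held 13 whole introns, against 1339 in 802 of the other genes. Their median length was 242 bases, against 330, and 7 of the 13 were at most 300 bases long, or 53.8% against 47.1%. Median GC content was 51.4%, against 50%. All 13 had GT and AG at their ends, against 97.5%. The 5′ splice site score, log2 odds of the 9 bases at the site against equal base frequencies, had a median of 8.55 bits, against 7.43 bits. Its range over the members was 1.32 to 12.3 bits, with Stk25 lowest and Pirb highest. Introns of 1 gene are not independent, and 13 introns give no precise median.

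Overlap with other genes was frequent. An exon of another gene overlapped a retained-intron transcript in 14 members. In 4 members the leading retained-intron transcript had a copy elsewhere, which left 10 with neither. Those 10 were Cd83, Dgat1, Rfc2, Tk1, Slc7a11, Slc27a1, Bbs10, Tnip3, Mpp7 and Ifi27. For the other 15 the values are uncertain. Copies were not sought for the remaining transcripts of the members, nor for the other genes, so the copy count has no background. The overlapping gene lay on the opposite strand in 12 members and on the same strand in 5. Such an overlap was present in 56.0% of the members, against 23.2% of the other genes. The median share of the 10 members with neither was 88.7%, against 87.9% for all 25.

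**Figure D5:**
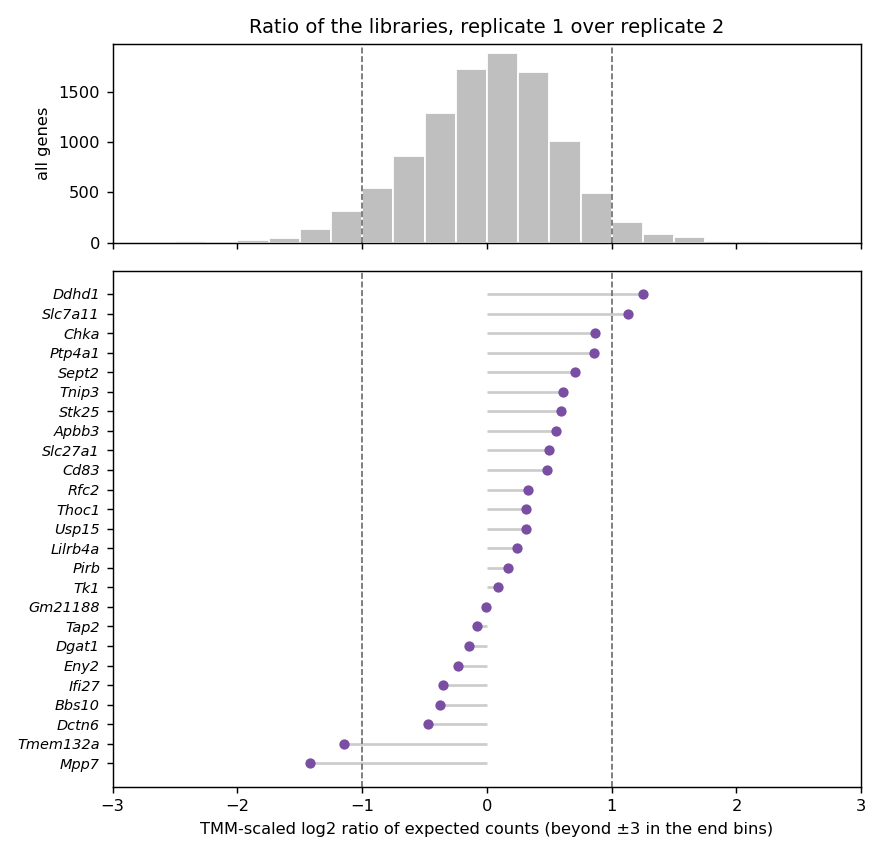
TMM-scaled log2 ratio of expected counts, replicate 1 over replicate 2, as a histogram of the 10441 genes averaging 50 counts or more (upper) and for each member (lower), with 2-fold dashed. Ddhd1 and Slc7a11 lie above 1, and Tmem132a and Mpp7 lie below -1.

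Ddhd1 and Slc7a11 had the highest gene counts in replicate 1 relative to replicate 2, and Tmem132a and Mpp7 the lowest. After TMM scaling, which sets a common scale from the bulk of genes, 4 of 25 members were beyond 2-fold, beside 8.96% of the 10441 genes that averaged 50 counts or more and 4.29% of the 2658 others at the same TPM limit. In replicate 1 Ddhd1 was higher, with 5516 counts against 2220 in replicate 2, a log2 ratio of 1.25. Slc7a11 was higher there too, with 1516 counts against 662, a log2 ratio of 1.13. Among all genes 3.74% were higher in replicate 1 by that measure and 5.21% in replicate 2. In replicate 1 Tmem132a was lower, with 2971 counts against 6282 in replicate 2, a log2 ratio of -1.15. Mpp7 was lowest, with 1227 counts against 3141, a log2 ratio of -1.42.

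The median log2 ratio of the members was 0.31, with 16 above 0 and 9 below, against 0.03 for all genes and 0.17 for the 2658 others at the same TPM limit. On the TPM scale the median of all genes moved to 0.44 and that of the members to 0.55, and 6 members were then beyond 2-fold, all higher in replicate 1. Among all genes 16.9% were beyond 2-fold on that scale, and those higher in replicate 1 made up 15.1% of all genes. By the second transcript tables the count was 3 members, beside 6.8% of genes. Tmem132a and Mpp7 stayed below 0 on both scales. Their log2 ratios were -0.80 and -0.87 by TPM, and -1.16 and -1.30 in the second tables. For Mpp7 the log2 ratios of TPM were -1.08 for the retained-intron and 0.38 for the coding transcripts. The coding value was near the median of 0.44 for all genes. It rests on few reads, with 30 in replicate 1 and 28 in replicate 2 for the leading coding transcript Mpp7-208. Apbb3, Eny2, Ifi27 and Dctn6 also had opposite signs for the 2 classes, likewise on few coding reads. The coding level of Apbb3 in replicate 2 included 2.25 TPM of Apbb3-207, a model of 189 bases with 0.93 reads there. Its leading coding transcript, Apbb3-201, was higher in replicate 1, at 2.72 TPM against 1.97 TPM in replicate 2. Each ratio compares 1 library with 1 library and carries no error.

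Genes that act in RNA processing were examined beside the members, since introns kept in nuclear RNA are known from such genes. The lists below were chosen with results of these data known. Of 31 genes of the core spliceosome and its kinases that had both classes and reached the TPM limit, none was at 80% in both libraries, beside 1.04% of the 2683 genes, and 9 were at 50%, beside 13.7%, with a median share of 41.6% beside 28.6% over all 2683 genes. Srpk1, a kinase of SR proteins, was at 71.5% in replicate 1 and 70.1% in replicate 2, and Prpf39 of the U1 particle was at 71.4% and 70.2%. Of 7 mRNA export genes, the members Eny2 and Thoc1 were at 80%, which the rule fixed for members, and Nup98, a nuclear pore protein, was at 54.2% in replicate 1 and 55.3% in replicate 2. Their median was 31.6%.

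No gene reached 80% in both libraries in the other lists. The medians were 25.3% for 6 genes of nonsense-mediated decay and the exon junction complex, 30.1% for 11 of cleavage and polyadenylation and 33.7% for 6 of the nuclear exosome. They were 50.9% for 5 aminoacyl-tRNA synthetases, 48.8% for 9 genes of mTORC1 and lysosome control, and 35.6% for 3 of RNA polymerase II and Mediator. For 9 genes known for detained or retained introns in other studies, Ogt, Eif4a2 and Son among them, the median was 29.4% and none reached 50%.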

How the data were processed

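RNA of the nucleoplasmic fraction was measured in 2 libraries of 1 group. Genome mm10 and annotation GENCODE M21 are named in the deposited text files. The authors deposited expected counts and TPM per gene, and per transcript the expected counts, TPM, posterior mean TPM and each transcript's percent of its gene's TPM (the first transcript tables), per the file headers. A second transcript table for each library, also deposited, gives estimated counts and TPM. Tools and strand setting were not given in the sources used here, though RSEM and kallisto write such columns. Transcript classes and the annotation of exons came from GENCODE M21.

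The members and gene lists were chosen with earlier results of these data known. Spike-ins and numbered features, together 1.19% of counts in replicate 1 and 0.213% in replicate 2, were left out. Expected counts were rounded, then scaled with TMM from edgeR 4.0.16 under R 4.3.3, or with DESeq2 1.42.0 size factors. Ratios and these factors used genes averaging 50 counts or more. The leading transcript of a class is the one with the highest mean TPM. Introns were read from the transcript sequences, since no genome was used, and the splice site scores came from the 8624 annotated introns inside retained-intron transcripts, not from all coding introns as first planned. Copies of each member's leading retained-intron transcript were sought in transcripts of other genes with blastn 2.17.0, at 95% identity over at least 20% of the transcript. With at most 30 members all could be named; list genes are the highest of a list. The calculation of ratios between the libraries was checked on simulated counts. With 1 group there is no p-value.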

Additional observations from a re-analysis of the deposited data

How the results depend on the processing

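The number of members depended most on the share limit. It was 61 at a limit of 70% and 5 at 90%, 11 with genes that overlap another gene left out, and 38 to 42 with 1 library left out. A TPM limit of 5 gave 37 members and 20 gave 18. By reads 26 genes passed, 14 of them members, and with both the share and the TPM limit taken from the second transcript tables the count was 25, with 9 of them members. Keeping all symbols gave 28, and posterior mean TPM gave 22, of which 20 are members. The median share was 83.4% by reads, 83.0% in the second tables, 85.8% by posterior mean and 88.3% to 88.5% with 1 library left out. Over the 10 members with no such overlap or copy found, an alternative chosen after seeing the data, it was 88.7%.

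The members' median log2 ratio of 0.31 was 0.28 by library size or DESeq2 size factors, 0.55 by TPM, 0.19 in the second tables and 0.21 over those 10 members. The count of members beyond 2-fold stayed between 3 and 6. It was 2 higher and 2 lower in replicate 1 by TMM, but 6 and 0 by TPM, where 1580 of all genes were higher and 188 lower, and 1 and 2 in the second tables, where 235 were higher and 474 lower. Median intron length was 227 bases against introns of the leading coding transcript. Median GC content was 46.8% over introns of any retained-intron transcript, against 50.2% for the other genes. In the main setting the members were the higher, at 51.4% against 50%. The splice site score was 8.93 bits over any retained-intron transcript and 8.75 bits against the leading coding one. Over all alternatives, values stayed within the limits set for them in 14 and moved in 20. The limits for medians were narrow, so this tally largely follows from them. For the median share the limit was the SD of the library medians, 0.078 points, and every alternative moved. Medians of the log2 ratio and of the intron traits moved at any change left after rounding. A reversal could be scored only for the median log2 ratio, which kept its sign in every setting. The causes were not tested. A ratio of 2 libraries cannot be had with 1 left out. No paired analysis was possible because there is 1 group. Depth limits Ifi27, Dctn6 and Dgat1 most, each with under 400 reads in both libraries.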

Other observations

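A further 22 genes that reached 10 TPM were at 80% or more in both libraries by reads or in the second transcript tables but not by the TPM of the first tables, with the symbols named by the rule left out. Of these, 12 were so by reads and 12 in the second tables, and 2 by both. They were picked out after their values were seen, and they carry no test.

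The gene with the highest level was Lilr4b, the close relative of Lilrb4a, at 1850 TPM in replicate 1 and 1234 TPM in replicate 2. Its retained-intron share was 75.2% and 76.4% by TPM, but 89.8% and 89.7% by reads and 81.0% and 83.0% in the second tables. Clec4e, a receptor for mycobacterial glycolipids on macrophages, had 87.4% in replicate 1 and 81.3% in replicate 2 by reads, but 50.4% and 63.7% in the second tables. Fabp4, a fatty acid binding protein, showed the same kind of gap, with 86.4% and 91.3% by reads and 53.6% and 63.0% in the second tables.

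Other genes stood the other way round. Psme2, a subunit of the proteasome activator PA28, had 94.9% in replicate 1 and 95.9% in replicate 2 in the second tables, but 52.4% and 52.8% by reads. Paf1, of the elongation complex named after it, had 81.6% and 84.9% in the second tables and 40.3% and 37.9% by reads. Smg9, which acts in nonsense-mediated decay, had 81.9% and 82.9% in the second tables and 47.3% and 46.2% by reads. Spaca6 was above 80% in both libraries by reads and in the second tables, and missed the limit by TPM in 1 library, at 94.6% in replicate 1 and 78.8% in replicate 2.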
